A study of Mus musculus with 26 samples.

Results

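The 14 clones described here are the inguinal clonal cell lines with the most and the least signal for Tmem26, a cell surface marker of beige fat cells. They were chosen by ranking all 23 inguinal clones of a series of 26 mouse clonal adipose lines by the log2(intensity + 16) of the Tmem26 probe set with the highest mean over the 26 arrays. The 7 highest clones, called high-Tmem26 here, were I2, E3, B13, G10, E1, G23 and F4. The 7 lowest, called low-Tmem26, were D12, M3, X7, X9, N13, A5 and A3. The other 9 inguinal clones lay between them, and 3 clones came from the interscapular depot.

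All 26 lines carry the background strain 129SVE (Taconic) in the labels, which name no transgene, knockout or untreated control. Both sets of clones were differentiated and given forskolin, an activator of adenylyl cyclase that raises cyclic AMP, for 4 h. The dose stands as 10 mM in the sample protocols and as 10 micromolar in the series text, and this was not resolved. Each clone is 1 line grown from 1 cell and was measured on 1 Affymetrix mouse genome array, which gives a brightness (intensity) for each probe set. The labels give neither repeat cultures nor animals of origin, so p-values measure the spread among clones.

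Beige fat cells arise among white fat cells in depots such as the inguinal one, and can burn fuel for heat through the mitochondrial uncoupling protein Ucp1 when noradrenaline raises cyclic AMP. Brown fat cells of the interscapular depot do the same but come from other precursors. Tmem26, a membrane protein of little-known function, has been used with Cd137 (gene Tnfrsf9) and Tbx1 to find beige cells and their precursors in mouse inguinal fat.

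Tmem26 had ranking intensities of 711.82 (I2), 462.6 (E3), 427.17 (B13), 362.45 (G10), 348.65 (E1), 346.67 (G23) and 344.53 (F4) in high-Tmem26 clones. In low-Tmem26 clones they were 171.13 (D12), 170.58 (M3), 167.98 (X7), 145.2 (X9), 118.69 (N13), 92.4 (A5) and 67.94 (A3). I2 stood above its set, A3 and A5 formed the bottom of theirs, and the sets were separate because the ranking made them so. The clones just outside were G18 at 343.63 and D16 at 179.2, so neither border was a gap, and the 23 clones formed a slope rather than 2 classes. In interscapular clones the same probe set read 22.69 (BAT1), 17.01 (BAT6) and 27.81 (BAT8), below all 23 inguinal clones.

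A second Tmem26 probe set, which the ranking did not use, gave 79.76 to 374.14 with a median of 253.19 in high-Tmem26 clones and 42.71 to 136.06 with a median of 82.04 in low-Tmem26 clones. Ranked by it, 5 of the 7 high and 5 of the 7 low clones stayed in their sets. F4, at 79.76, was among the 7 lowest by the second probe set. Across the 23 clones the probe sets had a correlation of 0.78, as a description of 2 readings of the same arrays.

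**Figure D1:**
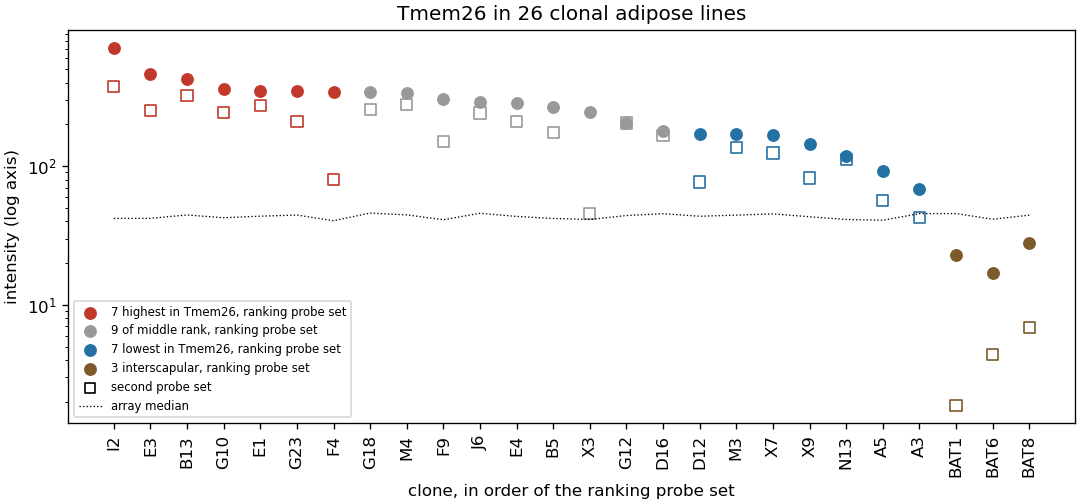
Tmem26 intensity (log axis) in each of 26 clones, ordered by the ranking probe set, with the 7 highest inguinal clones at the left. Filled circles are the ranking probe set, open squares the second probe set, and the dotted line each array's median; F4 is high by the first (344.53) and low by the second (79.76).

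Array medians were 40.36 to 44.41 in high-Tmem26 and 40.7 to 45.39 in low-Tmem26 clones, and exact permutation tests of array medians, means and 3′ to 5′ ratios between the sets gave adjusted p between 0.44 and 0.487. The Gapdh 3′ to 5′ log2 ratio was -0.16 to 1.61 (median 0.07) in high-Tmem26 clones. It was -0.10 to 0.17 (median -0.02) in low-Tmem26 clones, and a test of means can miss such a difference in range. Scanner 1 read 5 high and 3 low arrays and scanner 2 read 2 and 4 (Fisher's exact p = 0.592). Scan session 1 held all 7 high and 5 low arrays, and A3 and N13 were scanned in other sessions. Chip lot 3 held 5 high and 2 low arrays, while lot 1 held only high and lots 2, 5 and 6 only low arrays of these 14. Some clones that share a letter fell in the same set. Both A clones and the X clones X7 and X9 were low, while E1, E3, G10 and G23 were high. Their letter mates X3, E4, G12 and G18 were of middle rank. The B, D, F and M clones were each divided between a set and the middle rank. What a shared letter means is not stated. The 17 inguinal pairs with a shared letter had correlations of gene-centred profiles between -0.12 and 0.55 with a median of 0.18, and 6 were below 0, G10 with G23 (-0.03) among them. E1 and E3 had the highest correlation of the 253 inguinal pairs (0.55), and A3 and A5 the third highest (0.43), against a median of -0.02 for pairs with different letters.

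All 14 clones carried fat cell transcripts. Adipoq, the adipocyte hormone adiponectin, read between 9.19 (I2) and 13.66 (B13) on the log2 scale in high-Tmem26 clones, with a median of 12.14. Its range was 10.68 (N13) to 14.13 (D12), with a median of 13.26, in low-Tmem26 clones. The sets overlapped, and I2 and N13 had the least signal of their sets. Of the macrophage and leukocyte markers on the array 9 of 14 passed the filter on dim genes, with a median difference of -0.03. The filter was passed by 3 of 10 endothelial, 6 of 14 skeletal muscle, 5 of 9 Schwann and neural and 5 of 10 mesothelial and epithelial markers, and none of these or the leukocyte markers passed between the sets.

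Few genes separated high-Tmem26 from low-Tmem26 clones, and all that passed were higher in the high clones. Of 12734 genes tested without Tmem26 itself, 21 passed (limma with Benjamini-Hochberg adjustment, adjusted p under 0.05), which is 0.165%, and 0 were lower. Their differences ran from 0.60 to 2.42 on the log2 scale, and 8 differed by at least 1. The smallest adjusted p was 0.044. At an adjusted p under 0.1 there were 83 higher genes (0.652%) and 10 lower genes (0.0785%). At an unadjusted p under 0.05 there were 1341 higher genes (10.5%) and 654 lower genes (5.14%). In 61 genes (0.479%) every high clone lay above every low clone, and in 17 (0.134%) every high clone lay below. Of the 21 genes, 17 were separated in this way, and the others were Vit, Klk8, Dnm1 and Cfap69, each with 6 of 7 high clones above all low clones.

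Several of the 21 encode proteins of the matrix, of cell adhesion and of the actin skeleton, a grouping made after their values were seen. Vit, the extracellular matrix protein vitrin, had the largest difference. Its log2 level was 6.68 to 8.70 (median 8.09) in high-Tmem26 clones and 4.11 to 6.94 (median 5.37) in low-Tmem26 clones. E1 was the lowest high clone, below D12, and 5 low clones lay below their array median, so the difference of 2.42 ± 0.44 (SE, adjusted p = 0.044) is set partly against background. Tinagl1, a secreted matricellular protein, read 9.56 to 10.31 (median 9.88) in high-Tmem26 clones and 7.24 to 9.49 (median 8.21) in low-Tmem26 clones. These ranges did not overlap, although M3 at 9.49 came close, and the difference was 1.60 ± 0.29 (adjusted p = 0.044).

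Palld, which encodes the actin-binding scaffold palladin, passed under more of the alternative settings (30 of 50) than any other of the 21 genes. Its level was 11.71 to 12.60 (median 12.04) in high-Tmem26 clones and 10.71 to 11.27 (median 11.09) in low-Tmem26 clones, with no overlap. The difference was 1.05 ± 0.15 (SE, n = 7 each, adjusted p = 0.044), or 2.07-fold on this scale. The 3 interscapular clones read 10.79 to 10.88, inside the range of the low set. Actn1, the actin cross-linker alpha-actinin-1, was 0.82 higher at 12.55 ± 0.25 in high-Tmem26 and 11.73 ± 0.32 in low-Tmem26 clones (SD, n = 7 each). Sh3pxd2a, the scaffold of podosomes and invadopodia also called Tks5, was 0.73 higher, and Adam9, a membrane-bound metalloprotease, 0.69 higher. Neither overlapped between the sets.

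Another 6 of the 21 act at the cell surface or in membrane traffic. Slco2a1, the prostaglandin transporter, read 11.20 to 11.67 (median 11.45) in high-Tmem26 clones and 9.74 to 11.08 (median 10.34) in low-Tmem26 clones. The sets did not overlap, but D16 of the middle clones had only 7.54. Siglecg, a sialic acid-binding inhibitory receptor best known from B cells, read 8.75 to 9.64 (median 9.09) in high-Tmem26 clones and 7.52 to 8.61 (median 7.98) in low-Tmem26 clones, a difference of 1.11 ± 0.18 without overlap (adjusted p = 0.044). Dnm1, the membrane-severing GTPase dynamin 1, was 0.92 higher, Igdcc4, an immunoglobulin-domain membrane protein, 0.81, Aak1, a kinase of clathrin-dependent uptake, 0.74, and Il17rd, a membrane inhibitor of FGF signalling, 0.74. A5 at 9.81 was the low clone that reached into the high range of Dnm1, and 6 of 7 low clones lay below the array median for Il17rd.

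Cilium and kinase-anchoring genes made up a smaller number. Dzip1, needed for cilium formation, read 7.70 to 8.45 (median 7.99) in high-Tmem26 clones and 6.26 to 7.52 (median 6.90) in low-Tmem26 clones. Akap11, an anchor of the cyclic AMP-dependent kinase PKA, read 9.59 to 10.06 (median 9.77) in high-Tmem26 clones and 8.02 to 9.28 (median 8.47) in low-Tmem26 clones. Neither gene overlapped between the sets, and the differences were 1.17 ± 0.20 and 1.15 ± 0.19 (adjusted p = 0.044 for each). Cfap69, a cilium and flagellum protein, was 0.91 higher, and Stk36, a kinase needed for motile cilia, 0.60 higher from a level below the array median in 6 low clones.

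The remaining 5 genes were Miat, Klk8, Ypel4, Zmiz1 and Ssbp3. Miat, a long non-coding RNA, read 7.33 (I2) to 9.66 (B13) with a median of 8.25 in high-Tmem26 clones and 6.22 (X7) to 7.32 (N13) with a median of 6.79 in low-Tmem26 clones. The sets touched at I2 and N13, and the interscapular clones read 7.31 to 8.15, most of it inside the range of the high set. Klk8, a secreted serine protease, was 1.35 higher, with A5 at 6.67 and N13 at 6.48 above the lowest high clone F4 at 6.43. For Klk8, 5 low clones lay below their array median, so this difference too is set partly against background. Zmiz1, a transcriptional coregulator, was 0.75 higher, Ssbp3, a partner of LIM-domain transcription complexes, 0.74, and Ypel4, of the yippee family, 0.79.

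**Figure D2:**
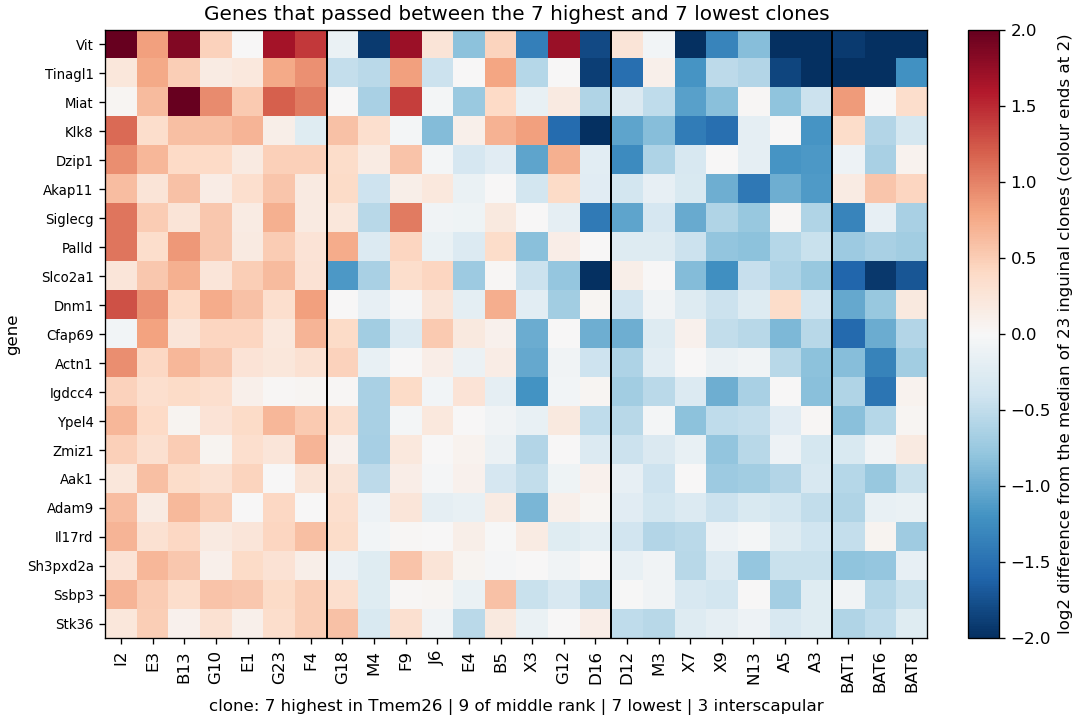
The 21 genes that passed between high-Tmem26 and low-Tmem26 clones, as the log2 difference of each clone from the median of the 23 inguinal clones (colour ends at 2). Vertical lines divide the 7 highest clones, the 9 of middle rank, the 7 lowest and the 3 interscapular clones; 143 of the 147 cells of the left block lie above the median and 2 below it (Cfap69 in I2, Klk8 in F4), as the genes were picked for this difference, and the middle block is mixed.

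**Figure D3:**
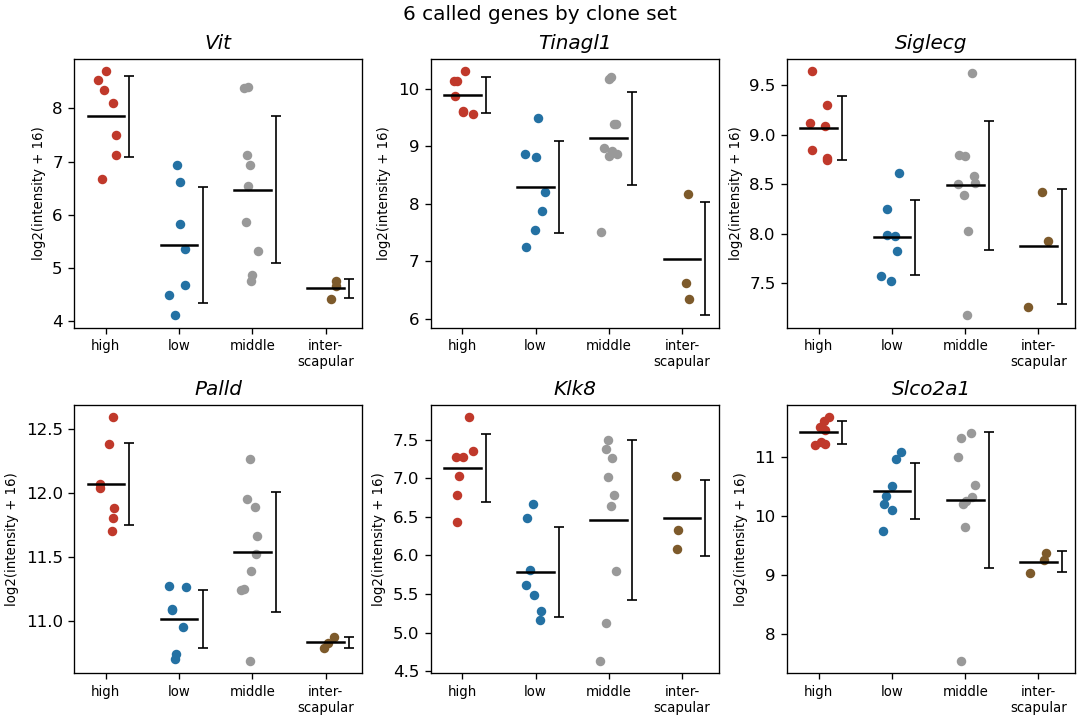
Log2(intensity + 16) of 6 of the 21 genes in high-Tmem26 (n = 7), low-Tmem26 (n = 7), middle (n = 9) and interscapular (n = 3) clones. Each point is a clone, horizontal lines are means and error bars are SDs; Palld shows no overlap between the high and low sets, whereas Vit and Klk8 do.

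The 9 clones of middle rank were not used in that comparison and gave no independent call. Regressed on Tmem26 in these clones alone, 0 genes passed (limma, smallest adjusted p = 0.265), and 488 (3.83%) had an unadjusted p under 0.05. Of the 21 genes, 20 had a slope above 0 there, as did 56.8% of all genes tested. The exception was Aak1, whose slope was at -0.01. Klk8, Siglecg and Slco2a1 had an unadjusted p under 0.05 in the middle clones. In 20 of the 21 genes the mean of the middle clones lay between the means of the sets, which can follow from picking genes for this difference. In 15 the mean of the interscapular clones lay below that of the low-Tmem26 clones. The shares of all genes with these orders are not given, so neither count is read as a trend.

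The 21 calls did not survive most changes of the clones used. Without each of the 14 clones in turn, between 0 and 67 genes passed, and 7 of these 14 fits called 0 (those without I2, E3, B13, G10, G23, F4 or X9). The highest count came without X7. Palld passed in 7 of the 14 fits and no gene passed in all of them. With scanner as a block 1 gene passed, Palld (difference 1.11, adjusted p = 0.0497). Palld did not pass when chip lot was the block (0.86, adjusted p = 0.203) or with the letter of the clone name as a random block (1.07, adjusted p = 0.0999). Within scanner 1 and within scanner 2 there were 0. Within scan session 1, with 7 high and 5 low clones, 10 genes passed, and these held Palld, Il17rd and Ssbp3 of the 21. When the clones were ranked by the second Tmem26 probe set, 0 genes passed, with 1242 at an unadjusted p under 0.05, against 1995 (15.7%) for the first.

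No gene passed as lower in high-Tmem26 clones, where the smallest adjusted p was 0.0603. The 10 genes of highest absolute t in this direction are named as not passing. Dkc1, the pseudouridine synthase of telomerase and of small nucleolar particles, read 8.87 to 9.40 (median 9.18) in high-Tmem26 clones and 9.33 to 10.21 (median 9.94) in low-Tmem26 clones. Only A5 of the low clones reached into the high range, and the other Dkc1 probe sets gave -0.63 and -0.69 beside -0.71. Snord104, a small nucleolar RNA locus, stood at 9.06 ± 0.37 in high-Tmem26 and 9.99 ± 0.36 in low-Tmem26 clones (SD, n = 7 each), without overlap. Psme3, a proteasome activator, differed by -0.56, Phf5a, a splicing factor subunit, by -0.43, and Mrps30, of the mitochondrial ribosome, by -0.44. The other Psme3 probe sets gave 0.10 and 0.11. Arl16 (-0.56), Cmbl (-0.52), Spsb2 (-0.66), Dnlz (-0.53) and Ache, the acetylcholinesterase (-1.10), were the others. The second probe sets of Arl16 and Spsb2 gave -0.36 and -0.41, and that of Dnlz -0.06. Ache lay below the array median in all 7 high and in 4 low clones.

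Ucp1 did not follow Tmem26. Its intensity was 9.24 (E3) to 68.81 (B13) with a median of 24.01 in high-Tmem26 clones and 10.69 (N13) to 170.82 (D12) with a median of 29.55 in low-Tmem26 clones. The sets overlapped over most of their range, and only B13 of the high clones and D12 and X9 of the low clones were above their array median. The log2 difference of -0.42 had a two-sided exact permutation p of 0.389, and a 95% interval of -1.29 to 0.46 in the limma fit. It was -0.14 without D12, -0.18 without X9 and -0.95 without A3, A5 and N13.

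The other listed markers of beige cells did not pass either. Of the 7 measured, 6 had a positive difference, and the median was 0.40, beside 0.04 for all genes. The mean of the list did not rise in step with Tmem26. Its median was 7.06 in high-Tmem26, 6.80 in low-Tmem26 and 7.30 in middle clones. The low set ran from 6.03 (A3) to 7.33 (D12), across the high range of 6.81 to 7.43. Tbx1, a T-box transcription factor, read 5.23 to 8.06 (median 7.10) in high-Tmem26 and 4.10 to 8.01 (median 5.86) in low-Tmem26 clones, which overlapped widely (difference 0.87, adjusted p = 0.507). A3 (4.30) and A5 (4.10) were the lowest for Tbx1, beside 4.14 to 5.06 in interscapular clones, and the difference was 0.14 without them. Tnfrsf9, the Cd137 receptor, was below the array median in 5 high and all 7 low clones and differed by 0.16. Cd40, a TNF receptor family member, differed by 0.49, Klhl13, a ubiquitin ligase adaptor, by 0.63, Sp100, a nuclear body protein, by 0.40, Slc27a1, a fatty acid transporter, by 0.03 and Cited1, a transcriptional coregulator, by -0.25, with adjusted p of 0.404 or more in each case. The Klhl13 difference was 0.21 without A3 and A5, while those of Sp100 and Tnfrsf9 did not shrink.

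Markers of brown and white cells gave no more. Of the brown markers, 5 passed the filter on dim genes and Mpzl2, Lhx8, Zic1 and Epsti1 did not; the 5 had a median of -0.17 and 0 calls. Ebf3, a transcription factor, differed by -0.77 through A3 (8.20) and A5 (7.44), which lay in or above the range of the interscapular clones (6.86 to 7.73), while the other 5 low clones read 4.53 to 4.83 beside 4.47 to 5.16 in the high clones. Without A3 and A5 the Ebf3 difference was 0.12. Fbxo31, a ubiquitin ligase subunit, differed by -0.17, but its other, dimmer probe set gave 0.31. Of the remaining brown markers, Hspb7, a small heat shock protein, differed by -0.01, Pdk4, which blocks pyruvate oxidation, by -0.17 and Oplah, an oxoprolinase, by 0.42. The 8 measured white markers (Tcf21, Slc7a10 and Lep did not pass the filter) had a median of -0.04 and 0 calls. Retn, the adipokine resistin, ranged from 5.54 to 8.46 in high-Tmem26 and from 5.78 to 13.09 in low-Tmem26 clones, a difference of -1.90 ± 0.90 (adjusted p = 0.322). Agt differed by -1.09, Wfdc21 by -0.44, Nnmt by -0.20, Hoxc9 by 0.11, Psat1 by 0.25, Dpt by 0.49 and Hoxc8 by 1.04 (0.40 without A3 and A5). The 17 measured thermogenic genes had a median of -0.36, 14 of them below 0 and none called. Ppargc1a, the coactivator of mitochondrial and thermogenic genes, differed by -0.98, the amino acid transporter Slc36a2 by -0.50, Esrra by -0.26 and Acot2 by -0.17.

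All 21 measured members of the general adipocyte list had negative differences, with a median of -0.64 and 0 calls. At an unadjusted p under 0.05, 6 of the 21 were lower, beside 5.14% of all genes. Fabp4, the fatty acid carrier of fat cells, read 10.78 (I2) to 14.44 (B13) with a median of 13.17 in high-Tmem26 and 13.12 (N13) to 14.65 (D12) with a median of 14.09 in low-Tmem26 clones. The sets overlapped, and the difference of -0.95 ± 0.44 did not pass (adjusted p = 0.317). Lpl, the lipoprotein lipase, differed by -0.01, Ghr, the growth hormone receptor, by -0.21 and Adipoq by -0.92. The mean of the list was 7.79 (I2) to 10.35 (B13) in high-Tmem26 and 8.39 (N13) to 10.88 (D12) in low-Tmem26 clones. Without I2 the median was -0.44, with 18 of 21 below 0 and 3 lower at an unadjusted p under 0.05, beside 4.26% of all genes in that fit. In whole cultures, fewer fat cells and less fat cell RNA per cell cannot be told apart.

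Lists of the opposite sign held no call either, and their counts are set beside 10.5% of all genes higher at an unadjusted p under 0.05. Of 30 genes of collagens and matrix, 14 were higher at that level, with a median difference of 0.41. Among them Thbs1, a matrix glycoprotein, differed by 0.99 and Tnc, tenascin C, by 1.12. Smooth muscle genes had a median of 0.58, and 6 of 13 were higher at that level, among them Acta2 (1.06) and Tagln (1.08), both of contractile actin fibres. The mean of the smooth muscle list was 8.39 to 9.50 in high-Tmem26 and 7.53 to 9.27 in low-Tmem26 clones, which overlapped. For cell cycle genes the median was 0.44 with 8 of 32 higher, and for preadipocyte and fibroblast genes 0.46 with 5 of 18 higher. Without I2 these counts were 13 of 30, 2 of 13, 2 of 32 and 4 of 18, beside 8.61% of all genes in that fit. Complement and acute phase genes had a median of -0.64 (-0.28 without I2), and genes of the respiratory chain and ATP synthase -0.14, with 9 of 46 lower at that level, beside 5.14% of all genes. With the general adipocyte mean as a covariate 9 genes passed between the sets, 6 of them among the 21 (Vit, Miat, Akap11, Palld, Slco2a1 and Sh3pxd2a).

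**Figure D4:**
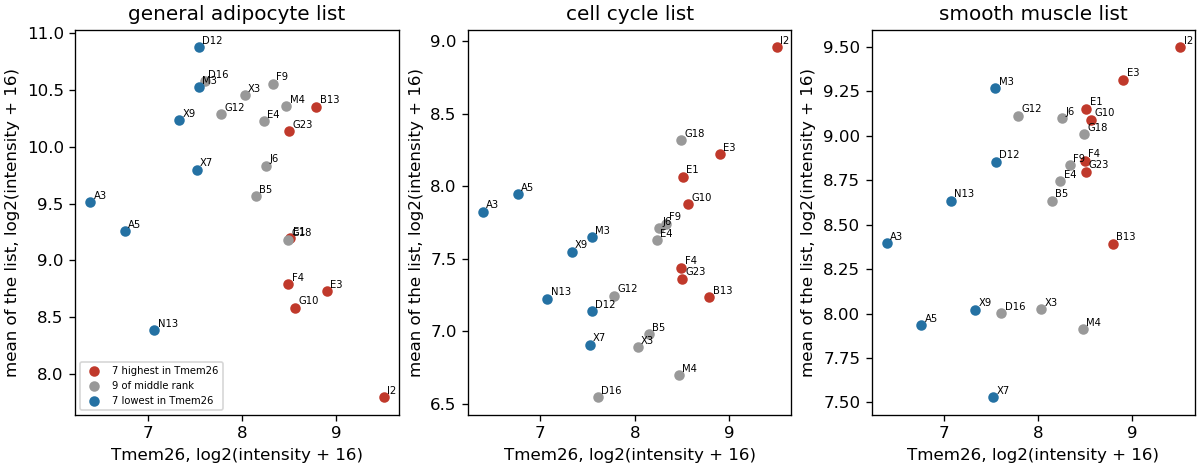
Mean log2(intensity + 16) of the general adipocyte, cell cycle and smooth muscle lists in each of 23 inguinal clones against Tmem26 on the same scale. I2, the clone with the most Tmem26, has the lowest adipocyte mean (7.79) and the highest cell cycle mean (8.96), while N13, A5 and A3, which have the least Tmem26, have adipocyte means of 8.39, 9.25 and 9.51.

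Regression of each gene on Tmem26 over all 23 inguinal clones called 176 genes (1.38%, limma, adjusted p under 0.05), of which 144 (1.13%) rose and 32 (0.251%) fell with Tmem26, 15 of the 21 among them. Of the 144 that rose, 37 lie on chromosome 14 (25.7%, beside 3.28% of the genes tested) and 31 in the distal run of 83 tested genes between Reep4 and Itgbl1 (21.5%, beside 0.652%), in the gene order of the RefSeq annotation of GRCm38.p6. The array files name no genome build, so no positions are given. The run starts at the drop in A3 and A5 given below. These clones have the least Tmem26, so a rise with Tmem26 there follows in part from where the run was cut.

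The clones A3 and A5, which have the least Tmem26, had low signal along that whole run. Against the median of the 23 clones, the 83 distal genes had a median of -1.10 in A3 and -0.93 in A5, and in each clone 63 of them (75.9%) were below -0.5. On other chromosomes 10.3% of genes in A3 and 12.7% in A5 were below -0.5. The 335 tested genes before Reep4 had medians of 0.0007 in A3 and 0.17 in A5, so the step lay inside the chromosome in both clones. N13 was low along the whole of chromosome 14, with medians of -0.37 before and -0.44 after the step. This was not confined to chromosome 14, as N13 also had medians of -0.26 on chromosome 8, -0.25 on 16 and -0.24 on 18. In N13, 48.2% of distal genes were below -0.5, beside 19.3% on other chromosomes, where its median was -0.08. In high-Tmem26 clones the distal medians were -0.0037 to 0.25. In the other 4 low-Tmem26 clones they were -0.19 to 0.00. X3 of the middle clones had medians of -0.17 before and -0.36 after the step. In X3, 34.9% of distal genes were below -0.5, beside 21.6% on other chromosomes.

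The difference between the sets was larger in the distal run, which starts at the drop in the low clones A3 and A5, than elsewhere. The median high minus low difference was 0.51 for the distal genes, 0.08 for the genes before them and 0.03 for the other chromosomes, and it was 0.25 for the distal genes without A3 and A5. Akap11 and Dzip1 of the 21 lie in the distal run, and Il17rd and Zmiz1 elsewhere on chromosome 14. Without A3 and A5, 37 genes passed between 7 high and 5 low clones, 9 of them among the 21, Il17rd and Zmiz1 included. Akap11 and Dzip1 kept differences of 1.03 and 0.98 there and missed the threshold (adjusted p = 0.052 and 0.0556), while in the slope over 21 clones without A3 and A5 both passed (adjusted p = 0.0082 for Akap11 and 0.0411 for Dzip1). Without A3, A5 and N13 there were 39, 8 of them among the 21. When the genes of chromosome 14 were left out of the test, 1 gene passed, Palld (adjusted p = 0.0451). The differences of the remaining genes are the same in that test. All 21 had limma adjusted p between 0.044 and 0.0497, close to the threshold, so this count does not show that the other genes depend on chromosome 14.

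**Figure D5:**
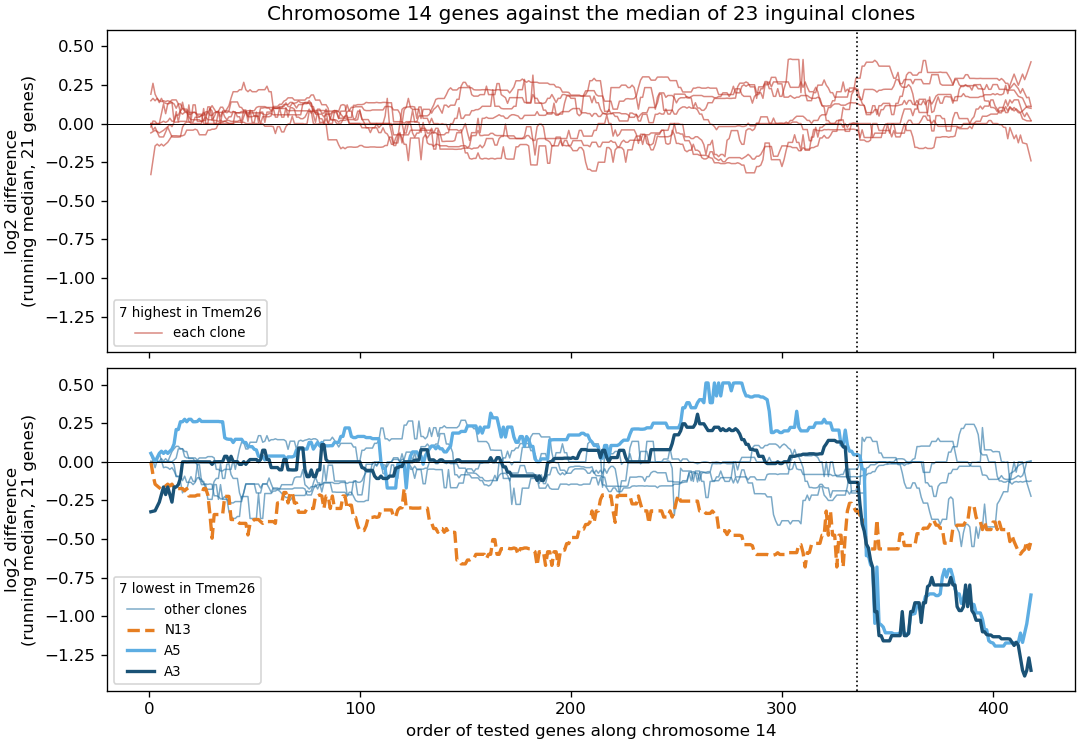
Running median over 21 genes of the log2 difference from the median of the 23 inguinal clones, along the order of the 418 tested genes of chromosome 14, for high-Tmem26 clones (upper panel) and low-Tmem26 clones (lower panel). The dotted line stands before Reep4; A3 and A5 drop there to about -1, N13 is below 0 along the chromosome, and the high clones stay near 0.

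The count of the regression changed with single clones, and fell most without A3, I2 or A5. Without A3 alone 44 genes passed, without I2 alone 88 (0.589% rose and 0.102% fell) and without A5 alone 104. Without N13 alone 249 passed (1.48% rose and 0.479% fell) and without X7 alone 231. Clones of middle rank raised it too, to 240 without M4 alone and 217 without X3 alone. Without A3 and A5, 261 genes rose (2.05%) and 34 fell (0.267%), of which 61 were among the 176, and 8 of those that rose lay in the distal run. Without A3, A5 and N13, 525 rose (4.12%) and 265 fell (2.08%), but without I2 as well 16 rose (0.126%) and 1 fell (0.00785%). N13 has the lowest adipocyte list mean of the low-Tmem26 clones and I2 the lowest of all 23, and the part of this in the counts was not tested.

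The calls of adipocyte and cell cycle genes changed with the same clones. The fit without A3, A5 and N13 was chosen after seeing the data. It drops N13, which has the lowest adipocyte list mean of the low set, and keeps I2, which has the lowest of all 23. In that fit 13 of 21 general adipocyte genes fell with Tmem26. Cidec, a lipid droplet protein, had a slope of -1.97 ± 0.40 log2 units per log2 unit of Tmem26 (adjusted p = 0.0101). Others were Gpd1, a glycerol phosphate dehydrogenase (-1.92), Cd36, a fatty acid receptor (-1.79), and Adipoq (-1.63). In the same fit 13 of 32 cell cycle genes rose, among them Ccnb2, cyclin B2 (1.23), Cenpa, the centromere histone (1.15), Nusap1, a spindle protein (1.02), and Rrm2, a subunit of ribonucleotide reductase (0.97). Without I2 as well, 1 adipocyte gene (Gpd1) fell and 1 cell cycle gene (Rrm2) rose, while calls over all genes numbered 17 against 790. The median slope of the adipocyte list was -0.75 there, against -1.19 with I2, and that of the cell cycle list 0.52, against 0.75. Over all 23 clones 1 of the 21 adipocyte genes fell, Klb, the coreceptor for Fgf21 (slope -0.57, adjusted p = 0.0444), and 0 cell cycle genes passed, while without A3 and A5 there were 0 adipocyte and 7 cell cycle genes.

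Among Hox genes, which mark position along the body axis, those that passed belong to the Hoxc cluster. Over 23 clones Hoxc4 (slope 0.58, adjusted p = 0.0185), Hoxc6 (0.47, adjusted p = 0.0184) and Hoxc8 (0.79, adjusted p = 0.0128) rose with Tmem26, 3 of 23 Hox genes measured and 0 fell. These 3 passed without N13 too, Hoxc4 and Hoxc8 passed without I2, and without A3 and A5 Hoxc10 was the single one to pass. Without A3, A5 and N13, Hoxc4, Hoxc6, Hoxc8 and Hoxc10 rose (4 of 23), and without I2 as well there were 0. Hoxc8 read 10.17 to 11.30 (median 10.96) in high-Tmem26 and 7.87 to 10.71 (median 10.30) in low-Tmem26 clones, where 4 of 7 high clones lay above all low clones. A5 (7.87) and A3 (8.46) were far below the other low clones (10.00 to 10.71), and the difference was 0.40 without them. Cd44, the hyaluronan receptor of the preadipocyte and fibroblast list, also rose with Tmem26 (0.48, adjusted p = 0.0184) over 23 clones, but did not pass without I2.

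The genes most like Tmem26 over the 23 inguinal clones were, in order of Pearson correlation and as a description without a test, Farp1 (0.87), Akap11 (0.85), Map3k20 (0.84), Tsc22d1 (0.83), Gpalpp1 (0.80), Tdrd3 (0.80), P3h2 (0.80), Il17rd (0.80), Stk24 (0.79) and Ttpal (0.79). Of these, Farp1, Akap11, Tsc22d1, Gpalpp1, Tdrd3 and Stk24 lie in the distal run of chromosome 14. Without A3 and A5 the correlation was 0.79 for Farp1, 0.82 for Map3k20, a stress-activated kinase, and 0.62 for Stk24, also a kinase. The other Map3k20 probe sets, all dimmer, differed by -0.04, -0.10 and -0.25 between high and low clones, against 0.54 for the one used. Those least like it were Thumpd1 (-0.81), Tsen15 (-0.78), Snord104 (-0.77), Tm2d3 (-0.75), Nsmce3 (-0.74), Jpx (-0.73), Mrpl17 (-0.72), Hddc3 (-0.72), Spsb2 (-0.71) and Ifi35 (-0.71). Thumpd1, Tm2d3, Nsmce3, Mrpl17 and Hddc3 lie on chromosome 7. Of the 32 genes that fell with Tmem26 over 23 clones, 6 lie on chromosome 7 and 7 on chromosome 6. The median high minus low difference on chromosome 7 was -0.02, and its medians in inguinal clones were -0.12 (B13) to 0.11 (A3). Whether chromosome 7 holds more of these genes than its share was not tested. The points share 1 processing and the batches given above.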

How the data were processed

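The authors deposited an intensity on a linear scale for every probe set of every array, and the sources used here do not give how probes were summarised or arrays scaled. Scanner, scan session (scans within 5 days), chip lot and fluidics station came from the deposited experiment files, used as other settings and not as measurements. The 14 clones and all gene lists were chosen with earlier results of these data known.

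Values were taken as log2(intensity + 16) without further scaling, which understates differences of dim genes. Of 45101 probe sets, 34958 carried 1 gene symbol in the platform annotation, and 34754 of them matched RefSeq (GRCm38.p6). Each gene was represented by its probe set with the highest mean and kept if above the array median in at least 3 of 26 arrays, which left 12735 genes. High minus low differences and slopes on Tmem26 were fitted with limma 3.58.1 (R 4.3.3), as two-sided tests, adjusted by Benjamini-Hochberg over the whole table, with 0.05 as the threshold. Ucp1 and technical measures had exact permutation tests. No arrays were identical. The fits were tested on simulated data. The number of arrays limits the precision.

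Named genes were the 15 largest differences among those that passed, the 10 lower genes of highest absolute t, Ucp1, the beige, brown and white markers, 4 adipocyte and 4 thermogenic genes of highest mean, up to 4 members of a list by size where members passed (also in the slope fits), and the 10 genes most and 10 least like Tmem26. The other 6 genes that passed and Thbs1, Tnc, Acta2 and Tagln were chosen after their values were seen. Alternatives covered scaling, pseudocount, filter, probe set rule, batches, covariates, set size, ranking and single clones. Figures were drawn with matplotlib 3.10.9.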

Additional observations from a re-analysis of the deposited data

Results flagged for a closer look

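In sets of 7 clones, 122 sets of values of Tmem26 and the named genes were screened for a single clone far from its set, and 7 exceeded the critical value of 0.568 for its gap over the range, where chance gives about 1 in 20. A count of 7 in 122 is near this rate, so the flags are listed as a description. In high-Tmem26 clones, Tmem26 was highest in I2 at 9.51 on the log2 scale, against 8.90 in the next clone. The chance rate does not apply to Tmem26, because the ranking on these same values made the sets. Also in the high set, Psat1 was highest in E3 at 11.21, against 11.08. Sp100 was highest in F4 at 9.01, against 8.20, and Cd40 was lowest in F4 at 7.14, against 7.98. Lpl was lowest in I2 at 12.79, against 14.02 in the next clone. In low-Tmem26 clones, Cited1 was highest in D12 at 7.86, against 5.36, and Acot2 was lowest in A3 at 8.45, against 8.98.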

How the results depend on the processing

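All 1045 values of the 21 genes under alternatives kept their sign, but only 285 passed the threshold. Palld passed in 30 of 50 alternatives. Among 38 named genes that did not pass, 54 of 1895 values passed under an alternative, none with the other sign, and 132 changed sign without passing. The Ucp1 difference became 0.10 with the general adipocyte mean as a covariate (p = 0.765).

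The count of 21 became 1 with quantile normalization, with scaling to the 75th percentile, with the mean of a gene's probe sets, with scanner as a block and with fluidics station as a random block. It was 0 with a pseudocount of 1, with the letter of the clone name as a random block, within scanner 1, within scanner 2, with the Actb 3′ to 5′ ratio as a covariate, for 5 against 5 and for 11 against 11 clones, and with ranking by the second probe set or at a threshold of 0.01. The same fits had 745 to 1995 genes at an unadjusted p under 0.05. It was 3 for 9 against 9 clones, 6 with chip lot as a block, 8 with a difference of at least 1, 9 for every probe set on its own and with the adipocyte covariate, and 10 with scan session as a block or within session 1. It was 37 without A3 and A5, 44 with a pseudocount of 64 (6 of them lower), 83 with array weights (14 lower) and 93 at a threshold of 0.1. The slope over 23 clones called 176. Leaving out 1 clone gave 0 to 67, 7 of the 67 lower. It was 22 with no filter on dim genes, 25 with a stricter filter and 28 with a trend in eBayes, with 19, 21 and 21 of the 21 genes among them.

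Of alternatives chosen after seeing the data, 39 genes passed without A3, A5 and N13, 1 without chromosome 14 and 0 with ranking by the mean of both probe sets. The slope called 249 without N13, 88 without I2, 295 without A3 and A5, 790 without A3, A5 and N13, 89 on the second probe set and 215 with the adipocyte covariate. The cause of these shifts was not tested. No paired analysis was possible because the labels carry no replicate numbers and pair no clones.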
